A study of Homo sapiens with 6 samples.

Results

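Receptor tyrosine kinases (RTKs) are membrane proteins that bind a growth factor or an extracellular matrix component outside the cell and phosphorylate tyrosines inside it. The phosphorylated tails recruit adaptor proteins that pass the signal to the RAS, PI3K, PLC gamma and STAT pathways. Described here is H3K27 acetylation (H3K27ac), a histone mark of active promoters and enhancers, at 57 RTK genes in an established cell line of human clear cell sarcoma (CCS), SU-CCS-1. The genes were chosen by symbol, and all 57 matched GENCODE version 44, among 20033 protein-coding genes. Of 30784 H3K27ac peaks, 126 were assigned to these genes. A promoter peak had at least 1 base within 3 kb of any transcript start of the gene, and a body peak was any other peak that overlapped the gene. By this rule 55 promoter peaks belonged to 31 genes and 71 body peaks to 16 genes.

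The study asked how the EWSR1::ATF1 fusion (EA1) acts on chromatin in CCS. SU-CCS-1 carries the fusion in all samples, and no line without EA1 entered the comparison. The groups were 3 H3K27ac ChIP samples and 3 input samples, all from this 1 line and with no treatment in the labels, and whether they came from separate cultures was not given. The peaks are 1 merged list without height, score or a value per sample. A peak therefore stands for a call over input, its width is the only measure of size, and neither replicate spread nor depth can be given. A gene without a peak was below the calling cutoff and was not shown to lack acetylation. In a bulk culture, strong acetylation in some cells and weak acetylation in all cells cannot be told apart.

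In melanocytes and other neural crest derivatives, KIT, MET, ERBB3 and RET are known for guiding survival, migration and differentiation. CCS shares melanocytic features with melanoma, and MET and ERBB3 have been described in it. All 5 markers of this lineage used to check the line had a promoter peak, beside 63.4% of all protein-coding genes. They were the transcription factor genes SOX10 and MITF, the melanosome genes PMEL and MLANA, and S100B. Their summed peak width ranged from 1010 bases at S100B to 25850 bases at SOX10. The MLANA peak was not within 3 kb of the canonical start, and no peak lay over the canonical start of PMEL or S100B. Of the 6 promoter peaks of PMEL, 2 lay near no start of another coding gene.

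The sequences of 4 promoters show the kinds of start site that the receptors had, with every CpG dinucleotide in capitals. Each is the RefSeq promoter window on GRCh38.p14, from 250 bases before to 50 bases after the start, written 5′ to 3′ on the coding strand, which was the + strand in each case. MERTK and MET are shown because all 300 bases lay inside a peak, KIT because its window was as rich in CpG but had no base in a peak, and AXL as a window with few CpG and no peak.
MERTK, chr2:111898357-111898656: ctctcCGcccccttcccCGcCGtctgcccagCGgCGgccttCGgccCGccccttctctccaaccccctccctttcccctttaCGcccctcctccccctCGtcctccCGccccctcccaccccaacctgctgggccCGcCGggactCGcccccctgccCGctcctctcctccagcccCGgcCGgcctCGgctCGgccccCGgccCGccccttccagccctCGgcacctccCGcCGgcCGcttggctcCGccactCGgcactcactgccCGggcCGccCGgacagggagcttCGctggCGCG
MET, chr7:116671946-116672245: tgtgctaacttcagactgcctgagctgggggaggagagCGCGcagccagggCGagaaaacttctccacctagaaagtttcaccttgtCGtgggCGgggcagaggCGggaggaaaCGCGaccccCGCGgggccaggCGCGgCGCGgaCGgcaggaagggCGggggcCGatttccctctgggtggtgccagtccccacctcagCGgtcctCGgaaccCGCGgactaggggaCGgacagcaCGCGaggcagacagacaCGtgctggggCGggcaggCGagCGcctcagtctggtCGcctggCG
KIT, chr4:54657707-54658006: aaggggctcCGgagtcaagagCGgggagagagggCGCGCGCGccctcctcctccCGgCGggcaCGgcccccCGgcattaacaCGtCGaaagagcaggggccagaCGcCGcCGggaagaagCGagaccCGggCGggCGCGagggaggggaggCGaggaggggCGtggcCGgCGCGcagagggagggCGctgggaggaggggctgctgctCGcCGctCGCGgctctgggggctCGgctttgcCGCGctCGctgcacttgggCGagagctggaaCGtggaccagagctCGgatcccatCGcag
AXL, chr19:41218973-41219272: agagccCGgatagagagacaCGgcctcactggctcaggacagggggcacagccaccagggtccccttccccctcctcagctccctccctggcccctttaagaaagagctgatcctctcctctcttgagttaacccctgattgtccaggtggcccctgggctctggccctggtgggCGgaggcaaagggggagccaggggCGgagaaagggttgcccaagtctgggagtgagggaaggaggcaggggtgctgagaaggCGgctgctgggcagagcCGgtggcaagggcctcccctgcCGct
The windows held 32 CpG at MERTK, 30 at MET, 38 at KIT and 7 at AXL. Over the 15345 promoters of the RefSeq table the median was 22, with quartiles of 9 and 32. The windows of MERTK, MET and KIT thus all lay above the median, although only the first 2 carried a peak. The table held 51 of the 57 receptors, and not ERBB3, INSRR, FLT4, FGFR1, EPHA10 and STYK1.

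A promoter peak was found at 31 of the 57 receptors (54.4%), beside 63.4% of all protein-coding genes. A body peak was found at 16 receptors (28.1%), beside 17.9% of all genes, so that 33 receptors (57.9%) had any peak, beside 66.2%, and 24 (42.1%) had none, beside 33.8%. A peak lay over the start of the canonical transcript itself at 25 receptors (43.9%), beside 53.5%, and within 3 kb of that start at 27, beside 59.9%. A promoter peak that lay near no start of another coding gene was found at 29 receptors (50.9%), beside 44.6%, so that with shared peaks left out the share of receptors was above that of all genes and not below it. Both kinds of peak occurred at 14 receptors, beside 15.1% of all genes, whereas 17 had a promoter peak without a body peak, beside 48.3%. Only ROR2 and EPHA3 had body peaks without a promoter peak, a state found at 2.84% of all genes. No test was made of these shares, because the list holds no replicate values and genes are not replicates.

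**Figure D1:**
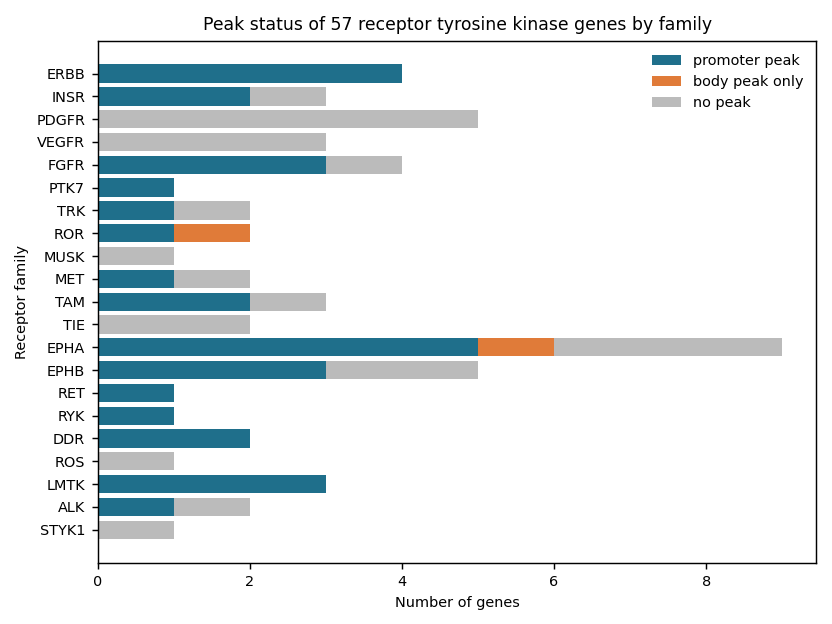
Number of receptor genes (horizontal axis) by family (vertical axis), split into genes with a promoter peak, with a body peak only and with no peak. All 4 ERBB genes had a promoter peak, and all 8 genes of the PDGFR and VEGFR families had no peak.

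The receptors are long genes, with a median length of 83.5 kb beside 27.5 kb for all protein-coding genes, and long genes held more body peaks. Within classes of gene length the shares of receptors with a body peak lay closer to those of all genes. They were below those of all genes in each class up to 200 kb and above them only in the class over 200 kb. A body peak was found at 2 of 14 receptors of 20 to 50 kb, where 15.5% of all genes had one, at 2 of 10 receptors of 50 to 100 kb (26.3%), at 5 of 14 of 100 to 200 kb (40%) and at 7 of 12 above 200 kb (49.6%). None of the 7 receptors shorter than 20 kb had one (4.81%). For promoter peaks, shared ones included, the share of receptors was below that of all genes in each of the 5 classes. It was 3 of 7 beside 52.4% under 20 kb, 9 of 14 beside 69.8% from 20 to 50 kb, and 5 of 10 beside 73.5% from 50 to 100 kb. From 100 to 200 kb it was 8 of 14 beside 73.7%, and above 200 kb it was 6 of 12 beside 68.4%. The count without any peak, in the same order of length, was 4 of 7 (46.6% of all genes), 5 of 14 (27.8%), 5 of 10 (22.8%), 6 of 14 (20.2%) and 4 of 12 (23.6%), so the share was above that of all genes in each class.

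**Figure D2:**
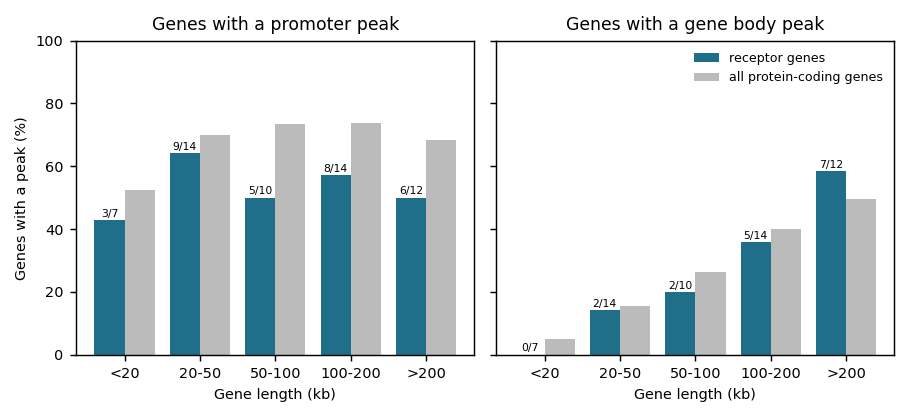
Percentage of genes with a promoter peak (left) and with a gene body peak (right) by class of gene length in kb, for receptor genes (teal, with counts above the bars) and all protein-coding genes (gray). In the class above 200 kb, 7 of 12 receptors had a body peak, beside 49.6% of all genes. In every other class the share of receptors with a body peak was below that of all genes.

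Peak bases were concentrated at few receptors. The 126 peaks summed to 182.9 kb, of which MERTK held 27.6%, and MERTK, NTRK2 and IGF1R together held 49.99%. Among the 33 receptors with a peak the summed width had a median of 2860 bases and ranged from 480 bases at EPHA8 to 50440 bases at MERTK. For the 13269 protein-coding genes with a peak the median was 1960 bases. Counting promoter peaks only, the median was 1700 bases at 31 receptors and 1760 bases at all genes with one. The peak over the canonical start had a median width of 1670 bases at 25 receptors, beside 1600 bases at 10725 genes. The medians at start sites were thus close to those of all genes, whereas the sum over all peaks of a gene had a larger median at the receptors. The receptors are longer genes, with medians of 83.5 kb beside 27.5 kb, and the sums were not compared within classes of gene length.

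**Figure D3:**
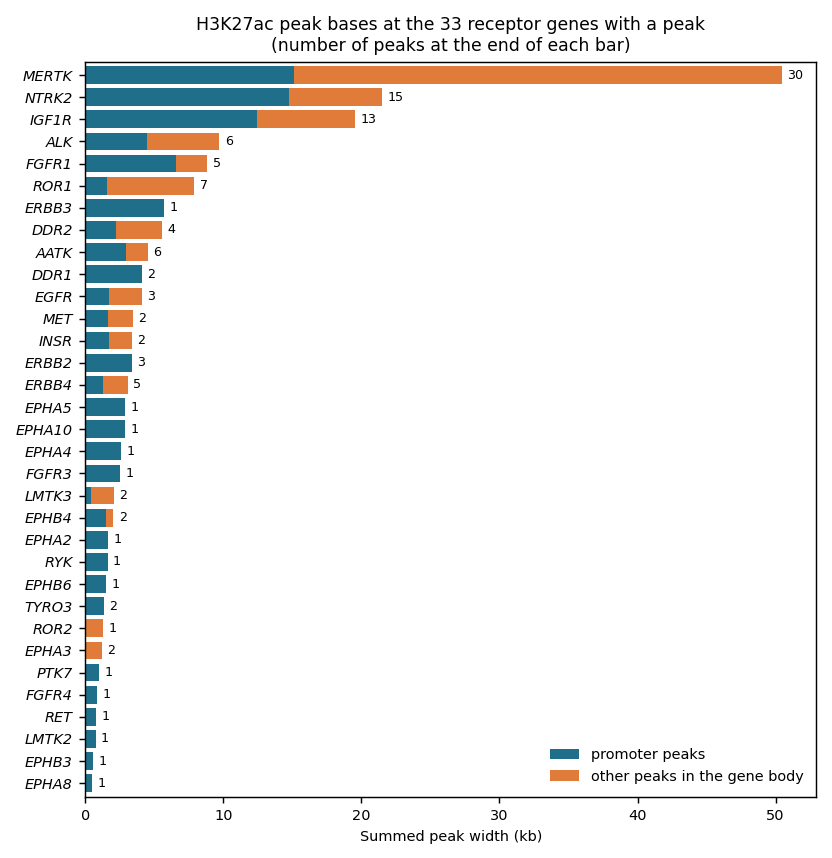
Summed peak width in kb (horizontal axis) at the 33 receptor genes with a peak, divided into promoter peaks and other peaks in the gene body, with the number of peaks at the end of each bar. MERTK had 30 peaks and 50.44 kb, and the other receptors had up to 21.48 kb.

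MERTK, a receptor of the TAM family that binds GAS6 and protein S and drives the uptake of apoptotic cells, had the most peaks and the most peak bases of the receptors. It carried 3 promoter peaks and 27 body peaks, which covered 33.8% of the 131.0 kb gene. Among all genes with a peak it ranked 19 by peak bases and 11 by number of peaks. The peak over its start (chr2:111897651-111906090) measured 8440 bases, reached from 0.956 kb before the start to 7.48 kb into intron 1, and ranked 80 among the 10725 peaks over canonical starts. The other promoter peaks, of 3180 and 3470 bases, lay 120.1 to 127.1 kb downstream near a coding transcript that starts inside the gene. The body peaks were 420 to 5410 bases wide. The widest overlapped the end of the gene and had its midpoint downstream of it, and its full width entered the sums of peak bases. Body peaks between introns 2 and 8 were close enough to be joined. When neighbouring peaks were stitched at the distance used in the study, 22 of them formed a region of 63.5 kb with 25.73 kb of peak, ranked 70 among 17049 regions by summed peak width. The density of body peaks was 20.6 per 100 kb. In genes of 100 to 200 kb that had a body peak, the median was 1.29 per 100 kb and 95% lay at or under 6.12.

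The remaining TAM receptors differed from MERTK. TYRO3 had promoter peaks of 930 and 420 bases and none in its body, and AXL had no peak. The nearest peak to the AXL gene began 0.874 kb past its 3′ end, and 12 peaks lay in the 100 kb downstream, with none in the 100 kb upstream. Of the ligands, PROS1, which encodes protein S, had a promoter peak at its canonical start. GAS6 had its only promoter peak, of 1350 bases, at another start.

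**Figure D4:**
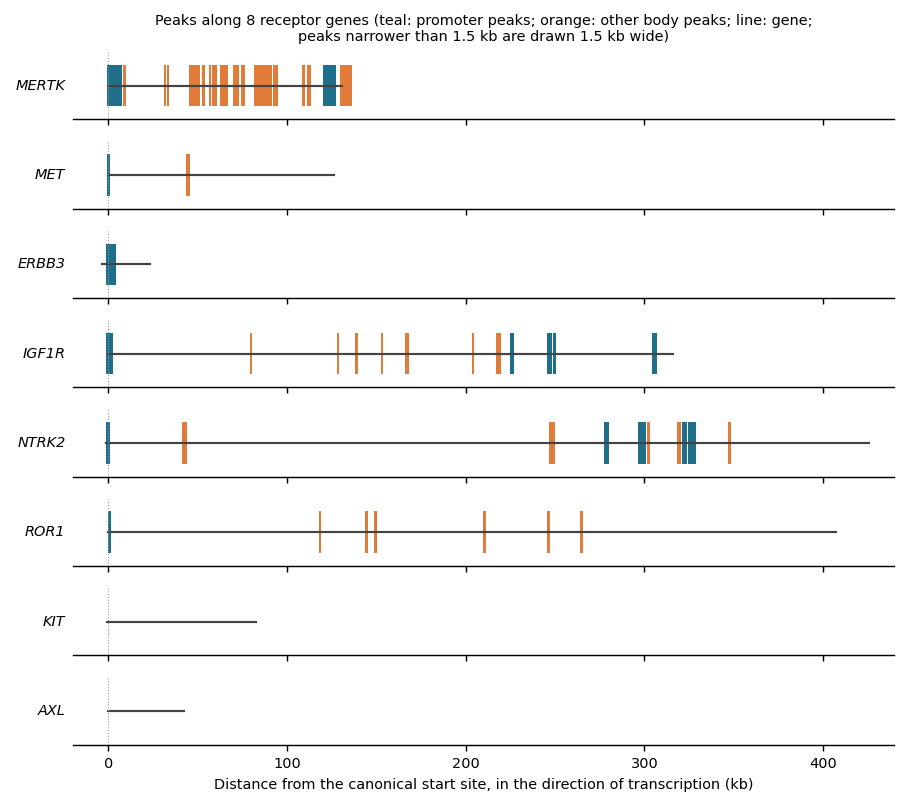
Peaks along 8 receptor genes, drawn by distance in kb from the canonical start in the direction of transcription (horizontal axis), with promoter peaks in teal, body peaks in orange and the gene as a line. MERTK had peaks spread along its 131.0 kb, NTRK2 and IGF1R had clusters more than 200 kb from the start, and KIT and AXL had no peak.

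All 4 ERBB receptors, the family of EGF and neuregulin signalling in which ERBB2 acts as a partner without a known ligand, had a promoter peak over the canonical start, but of unlike width. ERBB3, which has little kinase activity of its own and signals as a partner of other ERBB receptors, had 1 peak (chr12:56078991-56084650). It measured 5660 bases, ran from 1.17 kb before to 4.49 kb after the start, and ranked 229 among peaks over canonical starts. EGFR had a start peak of 1700 bases and body peaks of 1740 and 660 bases in introns 19 and 20. ERBB2 had 710 bases over its canonical start and further promoter peaks of 1270 and 1370 bases at other starts, which also lay within 3 kb of the starts of the neighbouring genes PGAP3 and MIEN1. ERBB4, the longest receptor gene at 1163 kb, had 550 bases over its start and 740 bases at an internal coding start, with 3 body peaks of 520 to 710 bases. The start peaks of ERBB2 and ERBB4 were narrower than those of over 90% of genes, with percentiles of 6.28 and 2.40, while ERBB3 stood at 97.9. Of the ligand genes of the family, NRG1, NRG2, NRG4, TGFA, AREG, BTC and HBEGF had a promoter peak, that of NRG4 being shared with TMEM266, and EGF, EREG, EPGN and NRG3 had none.

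MET, the receptor of hepatocyte growth factor, had 2 peaks. The promoter peak (chr7:116671421-116673070) measured 1650 bases, from 0.775 kb before to 0.874 kb after the start, and stood at percentile 53.2 of start peaks. The other peak measured 1780 bases and lay in intron 2, 43.6 to 45.4 kb downstream of the start. MET thus had a start peak of common width. Its ligand gene HGF had no peak. MST1R, the related receptor, had none either, although MST1, the gene of its ligand, had a promoter peak, shared with the start of RNF123. The nearest peak to the MST1R start was 24.2 kb away.

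KIT, the receptor of stem cell factor and a survival receptor of melanocytes, had no peak, and neither had PDGFRA and KDR beside it. These 3 genes lay in 1 interval of 1281 kb without a peak on chromosome 4 (chr4:54065051-55345950), which held 4 protein-coding genes in all. Of 30760 gaps between neighbouring peaks, 308 (1.001%) were at least as long. A gap that holds these 3 genes has to be at least 896.3 kb long. The nearest peak to the KIT start was 592.9 kb away. KITLG, which encodes the KIT ligand, had a promoter peak of 1040 bases. PDGFRB and CSF1R, which are adjacent on chromosome 5, shared another interval of 334.4 kb without a peak, while CSF1, the ligand gene of CSF1R, had a promoter peak. FLT3 and the VEGF receptor genes FLT1 and FLT4 also had no peak, in intervals of 183.4, 519.0 and 290.2 kb. The VEGFA, VEGFB, VEGFC, PDGFC and FLT3LG ligand genes had promoter peaks. The VEGFD, PGF, PDGFA, PDGFB, PDGFD and IL34 ligand genes had no peak. The angiopoietin receptor genes TEK and TIE1 had none, with intervals of 384.0 and 175.8 kb, and neither had the ANGPT1 and ANGPT2 ligand genes.

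The 24 receptors without a peak lay in intervals with a median of 419.7 kb, from 49.65 kb at LTK to 3589 kb at EPHA6. The median gap over the whole list was 17.9 kb, but a gap that holds an entire gene has to be at least as long as the gene. In 18 of the 24 the interval was longer than 200 kb, and in 11 it was longer than 500 kb. Of all 30760 gaps, 3043 were longer than 200 kb and 1152 longer than 500 kb. These counts are per receptor, so the interval shared by PDGFRA, KIT and KDR enters for each of them, as does that of PDGFRB and CSF1R. Besides LTK, the intervals of MST1R (114.1 kb) and STYK1 (107.2 kb) were the shortest.

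IGF1R and INSR, the receptors of insulin-like growth factors and insulin, both had a peak over the start, of 3890 and 1740 bases. IGF1R carried 13 peaks and 19.51 kb of peak, with 4 of its 5 promoter peaks at internal starts 224.8 to 307.3 kb downstream, none of which begins a coding transcript. Its 8 body peaks lay in intron 2 and were 410 to 3020 bases wide. INSR had 1 body peak of 1640 bases in intron 2. INSRR, a receptor activated by alkaline pH, had no peak. The ligand genes IGF1 and IGF2 had none, whereas the docking proteins IRS1 and IRS2, which the insulin receptors phosphorylate, had 9.44 and 15.00 kb of peak.

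Of the fibroblast growth factor receptors, FGFR1 had a start peak of 5040 bases, further promoter peaks of 1000 and 540 bases and body peaks of 1380 and 880 bases in intron 2. Its start peak ranked 293 among peaks over canonical starts. FGFR3 had 2540 bases and FGFR4 810 bases over the start, and neither had a body peak. FGFR2, a long gene with a CpG-rich start, lay in an interval of 1029 kb without a peak. Among the ligand genes FGF9 had 14.00 kb and FGF5 8.31 kb of peak. FGF2, FGF8 and FGF22 also had a promoter peak, that of FGF8 being shared with NPM3. The other FGF ligand genes had no peak, namely FGF1, FGF3, FGF4, FGF6, FGF7, FGF10, FGF16, FGF17, FGF18, FGF19, FGF20, FGF21 and FGF23.

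NTRK2, the receptor of brain-derived neurotrophic factor, had 15 peaks and 21.48 kb of peak, second to MERTK among the receptors. Its start peak measured 2460 bases. The other 7 promoter peaks lay 277.2 to 328.8 kb downstream at starts that begin no coding transcript, and the widest of them measured 4670 bases and lay in intron 17. NTRK3 had no peak in an interval of 1472 kb. Neither BDNF nor NTF3, which encode ligands of these receptors, had a promoter peak. ROR1, a receptor of WNT5A, had 1590 bases over its start and 6 body peaks of 440 to 1740 bases in introns 1 and 2. Its relative ROR2 had only 1 body peak of 1280 bases, 105.3 kb from its start, and MUSK, the receptor of the neuromuscular junction, had none. WNT5A and the agrin gene AGRN both had a promoter peak.

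Ephrin receptors form the largest RTK family and guide cells by contact. A promoter peak was found at EPHA2, EPHA4, EPHA5, EPHA8 and EPHA10 and at EPHB3, EPHB4 and EPHB6, or 8 of 14 receptors. Among all protein-coding genes 63.4% had one. The start peaks measured 2900 bases at EPHA5, 2600 at EPHA4, 1670 at EPHA2, 1520 at EPHB6, 1510 at EPHB4 and 480 at EPHA8. The EPHB3 peak, of 560 bases, began 0.556 kb after the start. The peak of EPHA10 lay 41.0 to 43.9 kb downstream at a start that begins only a transcript with a retained intron. The EPHB4 peak was shared with the start of SLC12A9. EPHA3 had body peaks of 560 and 610 bases, the first of them 6.86 kb after its start. EPHA1, EPHA6, EPHA7, EPHB1 and EPHB2 had no peak. Among the ephrin ligands EFNA1, EFNA3, EFNA4, EFNB1 and EFNB2 had a promoter peak, and EFNA2, EFNA5 and EFNB3 did not. The EFNA4 peak was shared with the start of ADAM15, and that of EFNA3 was not within 3 kb of its canonical start.

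DDR1 and DDR2, the collagen receptors, both had a peak over the start, of 3310 and 2180 bases, and DDR1 had a further promoter peak of 790 bases at an upstream coding start. DDR2 also had body peaks of 440, 1470 and 1430 bases in intron 2. RET, which binds the GDNF family with a co-receptor, had 1 peak of 790 bases in intron 4, 28.1 kb from the canonical start, at a start that begins only a transcript with a retained intron. Of the GDNF family ligand genes, GDNF and ARTN had no peak. NRTN had a promoter peak of 3140 bases over its canonical start and a body peak of 1560 bases. PSPN had a promoter peak of 1880 bases, shared with the start of ALKBH7. ALK had 6 peaks and 9.70 kb of peak but none within 3 kb of its canonical start, from which the nearest of the 6 lay 202.4 kb downstream. In the order of transcription its promoter peaks lay in intron 1 (2370 bases), intron 18 (1140 bases) and exon 20 (980 bases), at or near internal coding starts, and its body peaks lay in introns 3 and 4. LTK, the relative of ALK, had none, and of their ligand genes ALKAL2 had a promoter peak and ALKAL1 did not.

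RYK had 1600 bases over its start, and PTK7, a WNT co-receptor, had 970 bases that were shared with the start of KLC4. The lemur kinase genes LMTK2, LMTK3 and AATK each had a promoter peak. The LMTK2 peak, of 730 bases, began 9 bases after the start, the LMTK3 peak, of 400 bases, lay at an internal coding start, and AATK had 3 promoter and 3 body peaks of 490 to 1240 bases, with 2 of the promoter peaks also near the start of PVALEF. ROS1 and STYK1 had no peak. Of 8 receptors listed as lacking most or all kinase activity, 6 had a promoter peak (ERBB3, EPHA10, EPHB6, PTK7, RYK and ROR1), and ROR2 and STYK1 did not. In the other 49 receptors the count was 25, and among all protein-coding genes the share was 63.4%. With shared peaks left out the counts were 5 of 8, without PTK7, and 24 of 49.

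Of the 55 promoter peaks 29 lay within 3 kb of the canonical start of the gene. The other 26, at 12 genes, lay only at other starts, and 11 of these were near the start of a coding transcript. At ALK, EPHA10, LMTK3 and RET every promoter peak was of this kind, a state found at 3.47% of all genes. Promoter peaks had a median width of 1510 bases, with quartiles of 765 and 2570 bases, and body peaks of 830 bases, with quartiles of 540 and 1405 bases. The midpoints of 68 of the 71 body peaks fell in introns, 11 of them in the first intron. At least 3 body peaks were found at 8 receptors, beside 5.32% of all genes, and MERTK held 38.0% of all 71. None of the 7 receptors under 20 kb had so many (0.274% of all genes), nor any of 14 from 20 to 50 kb (2.37%). AATK was the 1 of 10 from 50 to 100 kb (7.23%), MERTK and DDR2 were the 2 of 14 from 100 to 200 kb (14.6%), and ERBB4, IGF1R, NTRK2, ROR1 and ALK were the 5 of 12 above 200 kb (25.6%).

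Promoter peaks summed to more than 3 kb at 8 receptors, beside 14.3% of all genes, namely MERTK, NTRK2, IGF1R, FGFR1, ERBB3, ALK, DDR1 and ERBB2. Stitched regions past the point where the curve of ranked summed widths reaches a slope of 1 numbered 879 of 17049 and held at least 7.99 kb of peak. The ranking rests on width alone and does not name super enhancers, which are called from reads. A region of this kind touched MERTK, NTRK2 and FGFR1, or 3 receptors, beside 7.67% of all genes. The NTRK2 region ranked 784 and that of FGFR1 ranked 834, near the limit. When peaks lying entirely inside 2.5 kb of start sites were dropped before stitching, only MERTK remained, beside 2.53% of all genes.

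The base composition of start sites was set beside their peaks. In the 1 kb around the canonical start, the ratio of observed to expected CpG had a median of 0.83 at the 31 receptors with a promoter peak and 0.64 at the 26 without. The medians for all protein-coding genes were 0.79 and 0.35. A CpG-rich start, with at least 50% GC and a ratio of at least 0.6, was found at 41 receptors, of which 28 had a promoter peak (68.3%), beside 82.8% of 12976 genes with such a start. Of the 16 CpG-poor receptors 3 had one (18.8%), beside 27.6% of 7057 genes. These were EPHA10, DDR2 and LMTK3, of which DDR2 alone had it at the canonical start. The 13 receptors with a CpG-rich start and no promoter peak were KIT, FLT3, FLT1, KDR, FLT4, FGFR2, NTRK3, ROR2, MST1R, EPHA6, EPHA7, EPHB1 and EPHB2. AXL, with a ratio of 0.32, and PDGFRA, with 0.44, stood among the CpG-poor genes.

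**Figure D5:**
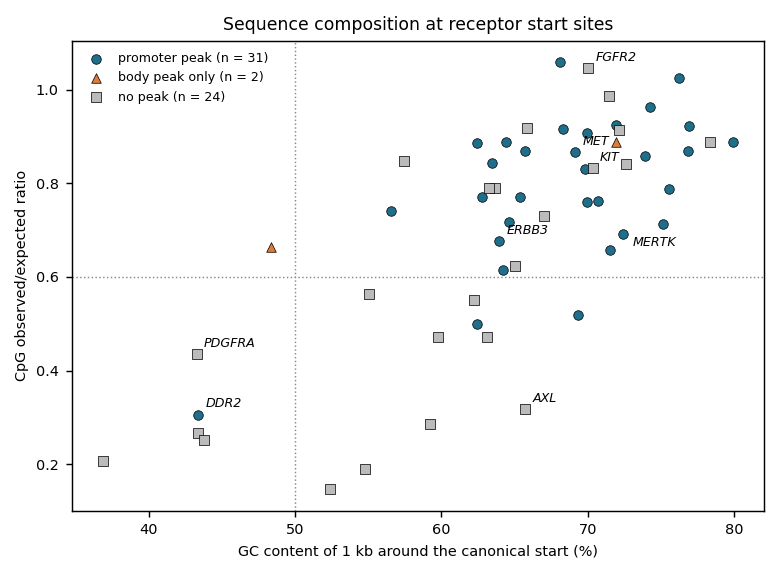
Ratio of observed to expected CpG (vertical axis) against GC content in percent (horizontal axis) of 1 kb around the canonical start, 1 point per receptor gene, by peak status. Dotted lines mark the limits of a CpG-rich start, 50% GC and a ratio of 0.6, and 13 receptors beyond both limits had no promoter peak.

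The ATF/CREB site TGACGTCA, which ATF1 binds, the AP1 site TGAGTCA and the MITF sites TCATGTGA and TCACGTGA were searched on both strands. For this search the 62 receptor peaks within 3 kb of a start of any gene were set beside 18856 such peaks, and the other 64 beside 11928 distal peaks. In the central 400 bases TGAGTCA was found in 1 of 62 (4.33% of all such peaks) and in 3 of 64 (6.87%), and TCATGTGA in 0 of 62 (1.13%) and in 2 of 64 (1.74%), body peaks of NTRK2 and AATK. TGACGTCA and TCACGTGA were found in none, beside 1.26% and 0.886% of peaks near starts and 0.302% and 0.335% of distal peaks. In whole peaks TGAGTCA was found in 8 of 62 (16.5%) and 11 of 64 (17.5%). TGACGTCA was found in 2 of 62 whole peaks (3.59%) and in none of 64 (0.981%). Those 2 sites are shown with 11 flanking bases on each side and the motif in capitals, together with the 4 TGAGTCA sites that lay in the central 400 bases of a peak, at MET, MERTK, ERBB4 and ROR1. All are hg38, 5′ to 3′ on the strand given.
EPHA2 promoter peak, chr1:16156102-16156131, + strand: catgccctgcgTGACGTCAccaacgcccgc
NTRK2 promoter peak in intron 17, chr9:84968982-84969011, + strand: atatgatacatTGACGTCAcattttcgttt
MET promoter peak, chr7:116672292-116672320, + strand: cgatgcccggcTGAGTCActggcagggca
MERTK body peak in intron 8, chr2:111991075-111991103, + strand: cagcaatggccTGAGTCAccaaacggctc
ERBB4 body peak in intron 2, chr2:212027850-212027878, + strand: tatcttgcatcTGAGTCAtgcggattgag
ROR1 body peak in intron 1, chr1:63918221-63918249, + strand: gcgtccctcccTGAGTCAgaatagtggaa
The NTRK2 site lay in the 4670-base peak at an internal start, and the MET site in the peak over its canonical start. Of the RefSeq windows of 300 bases, TGACGTCA was found in those of EPHA2, which had a start peak, and FLT1, which had no peak, beside 2.64% of all 15345. TGAGTCA was found in those of CSF1R and DDR2 (3.68%), TCATGTGA in that of LMTK2 (0.938%) and TCACGTGA in none (1.47%). The windows of CSF1R and DDR2 had no base in a peak, and that of LMTK2 had 41 of its 300 bases in one. A match describes these letters only, and no binding was measured here.

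Ligand and adaptor genes of the same pathways were counted in the same way. A promoter peak was found at 32 of 72 ligand genes (44.4%), beside 63.4% of all genes. By peak bases the first 5 were FGF9 with 14.00 kb, VEGFB with 13.22 kb, VEGFA with 10.19 kb, FGF5 with 8.31 kb and PDGFC with 6.30 kb. All 4 VEGFB peaks also lay within 3 kb of starts of other coding genes, among them DNAJC4, FKBP2, NUDT22 and PPP1R14B. Of 34 adaptor and regulator genes, which couple activated receptors to downstream enzymes or end the signal, 32 (94.1%) had a promoter peak. The exceptions were GRB7 and GRB14, a pair of related adaptors. GAB2, a docking protein that recruits PI3K and SHP2, had the most peak bases with 24.45 kb, followed by IRS2, SHC1 with 9.45 kb, IRS1 and PIK3R1 with 8.59 kb. The 3 SHC1 peaks were all shared with the starts of CKS1B or PYGO2. With shared peaks left out, 26 ligand genes (36.1%) and 28 adaptor genes (82.4%) had a promoter peak, beside 44.6% of all genes. No test was made between these lists.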

How the data were processed

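ChIP-seq of H3K27ac and input in SU-CCS-1 gave 1 merged list of broad peaks. Reads were mapped by the authors to hg38 with BWA-MEM (version 0.7.10-r789 in the submitters' processing notes), removed duplicate reads with samtools, called broad peaks with MACS2 (2.2.6) over input and removed denylisted regions. The deposited list has 4 columns (chromosome, start, end and name) and no other values. Broad calling joins neighbouring stretches, so width depends on signal and on the joining rule.

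Peaks were compared with GENCODE version 44 in Python 3.11.15 with NumPy 2.4.6, and sequence was read with pyfaidx 0.9.0.4. The canonical start is that of the Ensembl canonical transcript. The lists comprised 57 receptors, 72 ligands, 34 adaptors and 5 lineage markers. The receptors and lists were chosen with earlier results of these data known. Any receptor could be named, as could ligands of the receptors described, the 5 ligands and 5 adaptors with the most peak bases, markers and genes sharing a promoter peak. The counting was tested on simulated peaks. Promoter sequences came from RefSeq on GRCh38.p14, and matched hg38. Values are counts and shares without tests. The alternatives were other promoter windows, transcript sets, overlap rules, peak widths, stitching rules and sequence windows.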

Additional observations from a re-analysis of the deposited data

How the results depend on the processing

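Of 41 alternative values for 10 results, 30 counts stayed within 1.5 times the main count, and 11 moved, that is, counts by more than 1.5 times and the median width by any amount. Among these alternatives, 1 comparison with all genes turned round. Receptors with a promoter peak were 54.4% beside 63.4% of all genes, but with peaks shared with another coding gene left out they were 29 (50.9%) beside 44.6%. Apart from these alternatives, the share of receptors with a body peak, 28.1% beside 17.9%, also depended on gene length. It was below that of all genes in each length class up to 200 kb. The count of 31 receptors with a promoter peak was 31 with windows of 1 kb or 5 kb, 29 with coding transcripts only and 27 with canonical starts only. Peak width mattered most. With the widest 25% of peaks (wider than 1760 bases), 12 receptors kept a promoter peak, as did 26.5% of all genes. A peak over the canonical start remained at 10 receptors (21.9% of all genes) and a body peak at 5 (5.63%). No peak was left at 44 receptors (71.1% of all genes), and 11 ligand and 17 adaptor genes had a promoter peak. With the widest 50% (wider than 1060 bases), 22 receptors and 17 ligand genes had one, beside 48.6% of all genes. The median summed peak width rose from 2860 bases to 3105 with the widest 50% and to 3310 with the widest 25%, since receptors with narrow peaks drop out. Leaving out peaks wholly within 2.5 kb of a start reduced the receptors in stitched regions past the limit from 3 to 1. The share of all genes fell from 7.67% to 2.53%. Ranked by span there were 3 receptors, but MERTK, AATK and EPHA2, beside 9.40% of all genes. TGAGTCA was found in 4 receptor peaks in the central 400 bases and in 19 over whole peaks. No paired analysis was possible because the list has no column per replicate, and for the same reason no replicate could be left out. The list does not give depth, so weak or narrow acetylation below the cutoff was not detectable here.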
